A study of Mus musculus with 10 samples.

Results

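A set of 7 genes that handle circulating fat was followed through livers and liver tumours of MLK3-knockout and wild-type mice: the lipases Lpl and Lipc, the lipase inhibitors Angptl4 and Angptl8, the lipoprotein receptor Vldlr, and the fatty acid carriers Cd36 and Fabp1. They were chosen by symbol for their place in the uptake of lipid from blood, and all 7 were found among the 39056 genes of the count table and passed the filter on low counts, as did 15811 genes in all. The 10 libraries were made by 3' tag sequencing from male C57BL/6 mice aged 11 months, and the groups were tumour tissue of MLK3-KO mice given DEN and PB (3 libraries, called KO tumours below), tumour tissue of wild-type mice given DEN and PB (3, WT tumours), liver of MLK3-KO mice on plain water (2, KO livers) and liver of wild-type mice on plain water (2, WT livers). DEN (diethylnitrosamine, a DNA-alkylating carcinogen) was injected once, in pups 2 weeks old, at 5 µg for each g of weight, and PB (phenobarbital, a tumour promoter) followed after 1 week at 0.05% in the drinking water. All tumours came from treated mice and all livers from untreated ones, so tumour and treatment cannot be told apart. The labels do not say how MLK3, a kinase that acts upstream of JNK, was deleted, in which cells, or how tumour was cut away from the liver around it.

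Lipoproteins carry triglyceride in blood, and lipoprotein lipase, bound to the vessel wall by Gpihbp1, frees fatty acids from them for the tissue that makes the enzyme. Adult liver makes little of this enzyme and relies on hepatic lipase, encoded by Lipc, which trims the remnants that the liver then takes up. Angiopoietin-like proteins secreted by liver and fat block lipoprotein lipase, and Cd36 and Fabp1 carry the fatty acids across the membrane and through the cell.

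Library totals ran from 12408749 to 18081487 counts. Hepatocyte markers were abundant in all libraries, with a summed level of 44482 to 50523 CPM (counts scaled to a common library size, with TMM factors) in KO tumours, 88595 to 113702 in WT tumours, 51687 to 55083 in KO livers and 48111 to 49579 in WT livers for the 7 of 8 listed genes that were matched. The targeted gene, Map3k11, stood at 5.84 to 10.3 CPM in KO tumours, 9.54 to 14.3 in WT tumours, 5.38 to 5.81 in KO livers and 7.92 to 14.9 in WT livers. Tags come from the 3' end and the deleted part is not given, so this level does not check the knockout. One library stood apart: KO tumour replicate 2 had 55 counts of the fetal liver protein Afp and 7 of the tumour marker Gpc3, against 2337 to 5791 for Afp and 608 to 678 for Gpc3 in the other KO tumours. The calls of KO against WT tumours and of KO tumours against KO liver are given with and without it. WT tumours had 2000 to 8684 counts of Afp and 5444 to 8469 of Gpc3. Gpc3 was called lower in KO than in WT tumours in edgeR (log2 fold change -3.86, adjusted p = 0.0484) but not in DESeq2 (adjusted p = 0.17).

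Lpl (ENSMUSG00000015568.16, chromosome 8, 68880491 to 68907448, plus strand, GRCm38) had the widest range in fold terms, highest over lowest library, among the members other than the nearly silent Vldlr. WT tumours stood apart from all other groups. Its level was 185, 45.5 and 100.3 CPM in KO tumours 1, 2 and 3, and 536, 675 and 646 CPM in WT tumours 1, 2 and 3. It was 39.4 and 32.1 CPM in KO livers and 29.8 and 28.6 CPM in WT livers. Every WT tumour was above every KO tumour and every KO tumour above every liver. The order of the group means was therefore WT tumours (619 ± 73 CPM, SD, n = 3), KO tumours (110 ± 70, n = 3), KO livers (35.8 ± 5.2, n = 2) and WT livers (29.2 ± 0.86, n = 2), and the last pair did not differ beyond its error (log2 fold change 0.29, SE 0.43, edgeR adjusted p = 0.96).

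In WT tumours Lpl rose 21.2-fold over WT liver (log2 fold change 4.41, SE 0.48, edgeR adjusted p = 3.25e-05). In KO tumours it was 3.08-fold higher than in KO liver (1.62, SE 0.41), which missed the threshold over all genes (edgeR adjusted p = 0.17). Leaving out KO tumour replicate 2, the library with the lowest Lpl among tumours, turned this into a call (log2 fold change 1.99, edgeR adjusted p = 0.00282). DESeq2 also called it with all libraries (DESeq2 adjusted p = 0.00858), and over all alternatives the adjusted p ran from 1.04e-06 to 0.51. Between genotypes, Lpl was 5.62-fold lower in KO tumours than in WT tumours (-2.49, SE 0.37, edgeR adjusted p = 0.000641). This held without KO tumour replicate 2 (-2.12). The tumour-to-liver change itself was smaller in KO mice, by 2.78 on the log2 scale (interaction -2.78, SE 0.56, edgeR adjusted p = 0.0179). The interaction lost its call without KO tumour replicate 3 (-2.72, edgeR adjusted p = 0.0628), where the range over the alternatives was 5.15e-11 to 0.0628. These comparisons share samples: WT tumours enter both the tumour-to-liver and the genotype comparison.

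**Figure D1:**
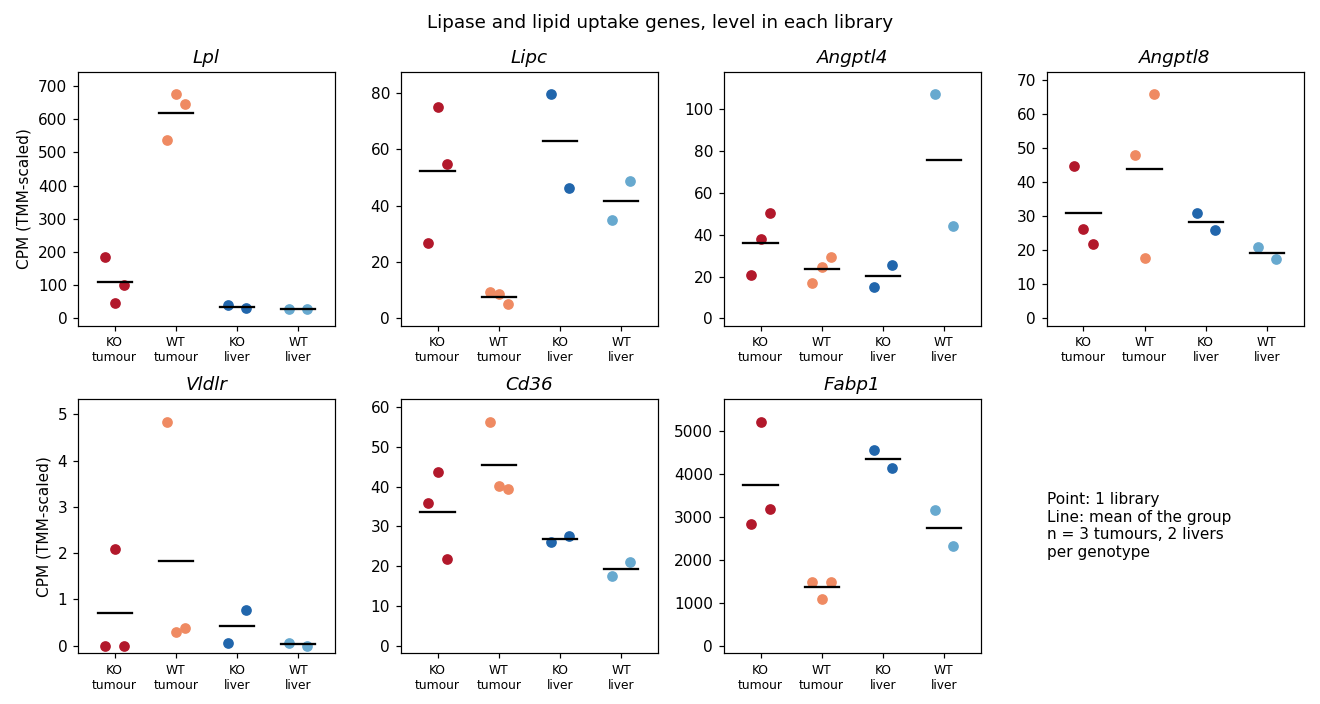
Level of each member (CPM scaled by TMM, linear axes, 1 panel a gene) in every library, KO tumours, WT tumours, KO livers and WT livers from left to right; points are libraries and lines are group means. WT tumours stand alone at 536 to 675 CPM of Lpl and at 5.00 to 9.27 CPM of Lipc.

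Lipc (ENSMUSG00000032207.10, chromosome 9, 70798128 to 70952226, minus strand, GRCm38), the lipase of mature hepatocytes, went the opposite way in WT tumours. It stood at 26.8, 75 and 54.8 CPM in KO tumours, 9.27, 8.74 and 5.00 CPM in WT tumours, 79.5 and 46.3 CPM in KO livers, and 34.7 and 48.8 CPM in WT livers. WT tumours were below all other libraries, while the other groups overlapped. The fall against WT liver was 5.44-fold (log2 fold change -2.44, SE 0.41, edgeR adjusted p = 0.00135). KO tumours were 6.80-fold higher than WT tumours (2.77, SE 0.39, edgeR adjusted p = 0.000434), and 2.41 on the log2 scale higher without KO tumour replicate 2. Against KO liver the KO tumours differed by -0.27 (SE 0.40, edgeR adjusted p = 0.89), with a 95% interval of the log2 fold change from -1.12 to 0.58. The interaction was 2.17 (SE 0.58) and missed the threshold (edgeR adjusted p = 0.0844), although DESeq2 called it (DESeq2 adjusted p = 0.0241). In edgeR it was 2.49 without KO tumour replicate 1 (adjusted p = 0.0239) and 1.82 without KO tumour replicate 2 (adjusted p = 0.19). Over its alternatives the adjusted p ran from 0.000215 to 0.25.

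The 2 lipase transcripts can also be set against each other within a library, since a 3' tag count depends little on transcript length. There were 6.89, 0.607 and 1.83 Lpl counts per Lipc count in KO tumours, 57.8, 77.3 and 129 in WT tumours, 0.496 and 0.694 in KO livers and 0.857 and 0.585 in WT livers. Lpl thus had more counts than Lipc in every WT tumour and in KO tumours 1 and 3, and fewer in every liver and in KO tumour 2. Capture of the 2 transcripts may differ, so the order of counts is not read as an order of transcript amounts. KO tumour replicate 1 had the highest Lpl and the lowest Lipc of its group.

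**Figure D2:**
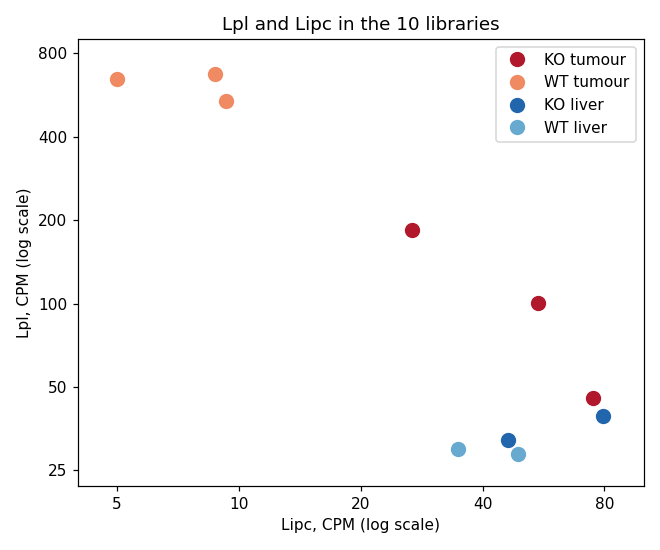
Lpl against Lipc (CPM, both axes on a log scale) with 1 point a library, coloured by group. WT tumours lie at the upper left, the 4 livers and KO tumour replicate 2 at the lower right, and KO tumours 1 and 3 above the livers and below the WT tumours in Lpl.

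Fabp1 (ENSMUSG00000054422.7, chromosome 6, 71199827 to 71205023, plus strand, GRCm38), the main fatty acid binding protein of the liver cytosol, was the most abundant member and followed Lipc rather than Lpl. It had 2831, 5232 and 3180 CPM in KO tumours, 1491, 1097 and 1495 CPM in WT tumours, 4579 and 4154 CPM in KO livers and 3174 and 2318 CPM in WT livers. All WT tumours were below all other libraries. Fabp1 was 2.75-fold higher in KO tumours than in WT tumours (log2 fold change 1.46, SE 0.25, edgeR adjusted p = 0.00255), and this held without KO tumour replicate 2 (1.14). Against WT liver it was 2.02-fold lower in WT tumours (-1.01, SE 0.27, edgeR adjusted p = 0.0307). That call was lost without WT liver replicate 1 (-0.77, edgeR adjusted p = 0.24), WT tumour replicate 2 (-0.90, adjusted p = 0.0943) or WT tumour replicate 3 (-1.11, adjusted p = 0.0509), and also with library totals alone as the scale (-0.73, adjusted p = 0.12). The range over the alternatives was 0.00234 to 0.24. KO tumours and KO livers overlapped (-0.22, SE 0.27, edgeR adjusted p = 0.86). KO livers were both above both WT livers (0.67, SE 0.30), which did not pass (edgeR adjusted p = 0.68).

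The regions before the annotated starts of Lipc, which has 2 in the table, and of Fabp1 are shown because these were the 2 members that were lower in WT tumours than in each other group without overlap. Of the 7 members, 5 had a promoter entry in the RefSeq table (GRCm38.p6), and Lpl and Angptl4 had none. The 250 bases before each RefSeq start were searched on both strands for 2 copies of AGGTCA with 1 free base between them (DR1), which the receptors PPARA with RXRA and HNF4A recognise, with at most 1 mismatch in the copies. Fabp1 held 1 match, on the minus strand, beginning 67 bases before the RefSeq start with 1 mismatch, in capitals below. No other member's windows held one, and 0.484% of 32851 windows of this length in the table did. A match is a description of the letters and no evidence of binding.
Lipc, outer start, chr9:70952227-70952471, minus strand, up to the GENCODE start: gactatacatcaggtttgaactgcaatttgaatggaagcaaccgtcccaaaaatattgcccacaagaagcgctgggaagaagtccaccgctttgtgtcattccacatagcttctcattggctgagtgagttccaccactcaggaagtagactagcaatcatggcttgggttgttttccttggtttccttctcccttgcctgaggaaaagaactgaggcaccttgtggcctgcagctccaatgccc
Lipc, inner start, chr9:70934809-70935058, minus strand: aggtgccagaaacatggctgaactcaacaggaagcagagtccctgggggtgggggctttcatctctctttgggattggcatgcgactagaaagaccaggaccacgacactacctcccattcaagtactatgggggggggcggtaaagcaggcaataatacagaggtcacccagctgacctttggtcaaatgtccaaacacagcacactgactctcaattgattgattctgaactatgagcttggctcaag
Fabp1, chr6:71199629-71199826, plus strand, up to the GENCODE start: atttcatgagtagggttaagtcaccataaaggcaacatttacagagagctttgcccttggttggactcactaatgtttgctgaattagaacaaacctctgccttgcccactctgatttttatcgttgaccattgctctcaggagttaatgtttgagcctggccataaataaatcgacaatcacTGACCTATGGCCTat

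Angptl4 (ENSMUSG00000002289.15 in the count table, chromosome 17, 33773750 to 33781830, minus strand, GRCm38) encodes a secreted inhibitor of lipoprotein lipase that fasting and fatty acids induce. Its highest levels were in WT livers. It stood at 20.7, 37.7 and 50.3 CPM in KO tumours, 17.1, 24.5 and 29.4 CPM in WT tumours, 14.9 and 25.5 CPM in KO livers, and 107 and 44.2 CPM in WT livers. Among the other groups only KO tumour replicate 3 reached the lower of the WT livers. Against WT liver, Angptl4 was 3.19-fold lower in WT tumours (log2 fold change -1.68, SE 0.42, edgeR adjusted p = 0.0205). The call ended without WT liver replicate 1 (-0.90, edgeR adjusted p = 0.34), WT tumour replicate 1 (-1.50, adjusted p = 0.0791) or WT tumour replicate 2 (-1.73, adjusted p = 0.0565), within a range over the alternatives of 7.14e-06 to 0.34. In KO livers it was 3.75-fold lower than in WT livers (-1.91, SE 0.48), which did not pass in edgeR (adjusted p = 0.43) and passed in DESeq2 (adjusted p = 0.0293). Without WT liver replicate 1 the difference was -1.13, and over the alternatives the adjusted p ran from 0.000153 to 0.99. In KO tumours against KO livers the difference was 0.85 (SE 0.44, edgeR adjusted p = 0.55). KO and WT tumours differed by 0.62 (SE 0.38, edgeR adjusted p = 0.51).

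Angptl8 (ENSMUSG00000047822.8, chromosome 9, 21835510 to 21837347, plus strand, GRCm38), a secreted regulator of lipoprotein lipase that feeding induces in liver and fat, passed the test in none of the 5 comparisons. It had 44.9, 26.4 and 21.8 CPM in KO tumours, 47.9, 17.8 and 65.9 CPM in WT tumours, 30.9 and 25.9 CPM in KO livers, and 20.9 and 17.3 CPM in WT livers. WT tumour replicate 2 lay at the level of WT liver, while the other two WT tumours were above all livers. The difference between WT tumours and WT liver was 1.20 on the log2 scale (SE 0.46, edgeR adjusted p = 0.14) and became a call without WT tumour replicate 2 (1.55, edgeR adjusted p = 0.0248), in a range of 0.0117 to 0.40 over the alternatives.

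Cd36 (ENSMUSG00000002944.15, chromosome 5, 17781690 to 17888801, minus strand, GRCm38), a membrane receptor for long-chain fatty acids that macrophages and capillary endothelium also make, stood at 35.9, 43.6 and 21.7 CPM in KO tumours, 56.4, 40.2 and 39.5 CPM in WT tumours, 26.1 and 27.7 CPM in KO livers, and 17.6 and 21.1 CPM in WT livers. WT tumours were above all livers, and KO tumours overlapped both WT tumours and KO livers. Cd36 rose 2.34-fold in WT tumours over WT liver (log2 fold change 1.23, SE 0.33, edgeR adjusted p = 0.032). Of all called members it lost its call most often when 1 library was left out: without WT liver replicate 1 (1.10, edgeR adjusted p = 0.18) or 2 (1.36, adjusted p = 0.0919) and without WT tumour replicate 1 (1.03, adjusted p = 0.11) or 2 (1.29, adjusted p = 0.0502), the range over the alternatives being 0.0063 to 0.18. KO and WT tumours differed by -0.43 (SE 0.29, edgeR adjusted p = 0.56), with a 95% interval from -1.04 to 0.18, and by -0.65 without KO tumour replicate 2 (adjusted p = 0.45).

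Vldlr (ENSMUSG00000024924.14, chromosome 19, 27216484 to 27254231, plus strand, GRCm38), the receptor through which heart, muscle and fat bind triglyceride-rich lipoproteins, was barely detected. There were 0, 30 and 0 counts in KO tumours, 93, 4 and 6 in WT tumours, 1 and 11 in KO livers and 1 and 0 in WT livers. WT tumour replicate 1 held 93 of the 103 counts in its group and KO tumour replicate 2 all 30 in its own. A count of 0 allows up to 3 counts, or 0.156 to 0.231 CPM by library, for counting error only. No fold is read from so few counts, and Vldlr passed in none of the comparisons in edgeR or DESeq2.

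Set side by side, 5 of the 7 members passed edgeR's test in WT tumours against WT liver, where 8.34% of all tested genes passed. Lpl and Cd36 were higher (3.64% of genes were) and Lipc, Fabp1 and Angptl4 lower (4.7%). The same 5 passed in DESeq2, beside 16.1% of genes. Without WT liver replicate 1 only 2 members passed in edgeR (Lpl and Lipc). Without WT tumour replicate 1 there were 3 (Lpl, Lipc and Fabp1). Without WT tumour replicate 2 there were also 3, but of the 5 only Lpl and Lipc, with Angptl8 added. In KO tumours against WT tumours 3 passed in both tools, where 4.52% of tested genes passed in edgeR and 7.88% in DESeq2. Lipc and Fabp1 were higher (3.25% of genes) and Lpl lower (1.27%). In the interaction Lpl alone passed in edgeR, where 1.59% of genes did and 0.367% with its sign, and DESeq2 added Lipc and Angptl4, beside 4.6% of genes. In edgeR 3 members passed in the interaction without KO tumour replicate 1, 2 without WT liver replicate 2 and 0 without KO tumour replicate 3. None of the 7 passed edgeR's test in KO tumours against KO liver, where 0.0759% of genes did, or in KO liver against WT liver, where 0.00632% did. DESeq2 called 1 member in each, Lpl in the tumour comparison (2.95% of genes) and Angptl4 in liver (1.33%). At an unadjusted p under 0.05 in edgeR there were 1 member in the tumour comparison (Lpl, beside 9.61% of genes) and 2 in liver (Fabp1 and Angptl4, beside 7.28%). The libraries of the compared groups did not overlap for 6 members in WT tumours against WT liver (37.3% of genes), 1 in KO tumours against KO liver (26.7%), 5 in KO against WT liver (31% of genes) and 3 in KO against WT tumours (23.1%). The 6 include Vldlr, on 93, 4 and 6 counts in WT tumours and 1 and 0 in WT livers. The 6 members other than Vldlr went both ways in WT tumours against liver, 3 up and 3 down in fitted sign, with a median log2 fold change of 0.09, beside 0.09 over all tested genes (1.20 with Vldlr included). In KO tumours against liver their median was 0.23, beside 0.06 over all tested genes. The members were chosen with these data known, so the counts describe them and are no test of the list.

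**Figure D3:**
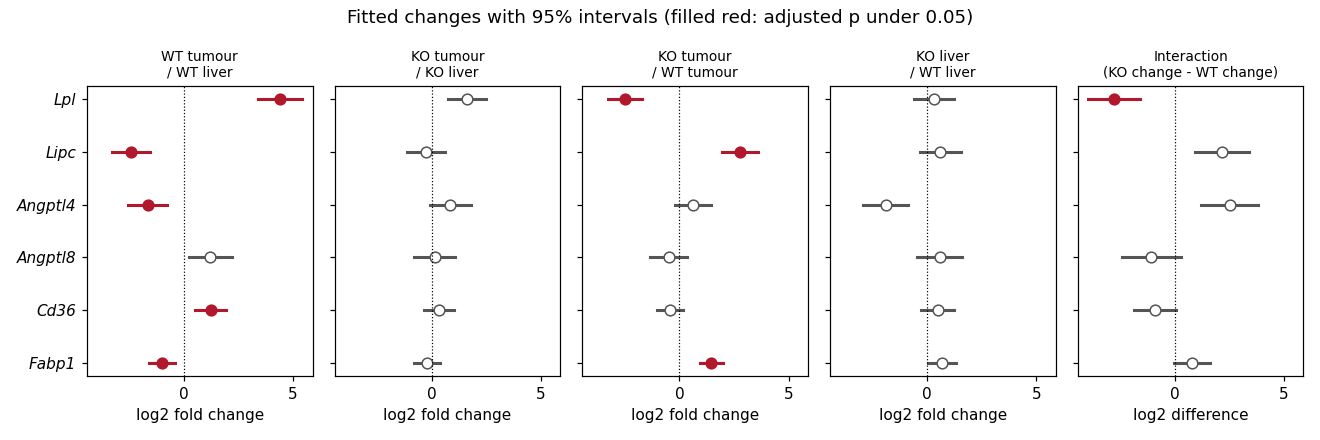
Fitted log2 fold changes (interaction: difference of log2 fold changes) with 95% intervals for the 6 members other than Vldlr, which was too low to be drawn. Filled red points passed edgeR's test, with 5 in WT tumours over WT liver, 3 in KO over WT tumours, and Lpl alone in the interaction.

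Other genes of the same pathway changed in both directions in WT tumours. Of 38 listed genes 37 could be tested, and 4 were higher and 6 lower against WT liver. Of all tested genes 3.64% were higher and 4.7% lower there (8.34% in either direction). Without WT liver replicate 1 the 10 calls came to 4, and without WT liver replicate 2 to 6. The median log2 fold change was -0.20, beside 0.09 over all tested genes. Apoc2, the activator of lipoprotein lipase, had no count in any library, and its exons overlap an annotated gene on the same strand, Gm44805. The handling of multiply assigned reads is not given, so this is not read as absence of the Apoc2 transcript. Among lipase partners, none of 5 genes of lipase and lipase maturation passed in edgeR (1 at an unadjusted p under 0.05, and 1, the endothelial lipase Lipg, in DESeq2). The endothelial anchor Gpihbp1 stood at 30.8 ± 1.9 CPM in KO tumours, 30.3 ± 3.8 in WT tumours, 24.9 ± 6.1 in KO livers and 23.9 ± 3.1 in WT livers (SD). The lipase maturation factor Lmf1 averaged 13.5 ± 1.5 CPM in WT tumours (n = 3) and 22 ± 7.1 in WT livers (n = 2; log2 fold change -0.70, edgeR adjusted p = 0.28). Of 7 tested regulators only Apoa5, an activator of lipolysis secreted by liver, passed. It was 2.07-fold lower in WT tumours (204 ± 9.7 CPM) than in WT liver (422 ± 46; edgeR adjusted p = 0.00786).

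Among 9 receptors and receptor partners, Scarb1, which takes up HDL cholesterol, rose 1.79-fold in WT tumours over WT liver (edgeR adjusted p = 0.0394). The remnant receptor Lrp1 fell to 256 ± 33 CPM in WT tumours, against 481 ± 18 in WT liver (edgeR adjusted p = 0.0101). Among 16 genes of fatty acid uptake and activation, 3 were higher and 4 lower. The acyl-CoA synthetases split: Acsl4 (1.93-fold) and Acsl5 (2.08-fold) rose, while Acsl1, the main form of mature liver, fell to 203 ± 24 CPM in WT tumours, against 886 ± 50 in WT liver (edgeR adjusted p = 0.000381). The intestinal form Fabp2 was 2.45-fold higher in WT tumours (edgeR adjusted p = 0.0164). The fatty acid transporter Slc27a5, which also activates bile acids, fell to 167 ± 9.5 CPM in WT tumours, against 581 ± 8.3 in WT liver (edgeR adjusted p = 0.000155). The acyl-CoA binding protein Dbi was 1.91-fold lower, and Mfsd2a, a carrier of lysophosphatidylcholine, fell to 0.981 ± 0.67 CPM in WT tumours, against 42.1 and 3.85 CPM in WT livers 1 and 2 (edgeR adjusted p = 0.00798).

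None of the 37 genes passed edgeR's test in KO tumours against KO liver, KO liver against WT liver or the interaction. At an unadjusted p under 0.05 there were 6 of them in KO tumours against KO liver (9.61% of all tested genes), 2 in KO liver against WT liver (7.28%) and 9 in the interaction (12.7%). DESeq2 called 0, 0 and 5, beside 2.95%, 1.33% and 4.6% of genes. In edgeR the interaction had 2 calls without KO tumour replicate 1 and 1 without WT liver replicate 2. Between KO and WT tumours 4 were higher and 3 lower, 7 of 37 where 4.52% of all genes passed. Acsl1 (537 ± 260 CPM in KO tumours, 203 ± 24 in WT tumours), Slc27a5 (458 ± 120 and 167 ± 9.5), Dbi (1.85-fold) and Mfsd2a (16.7 ± 11 and 0.981 ± 0.67) were higher in KO tumours, while Acsl4 (2.14-fold), Acsl5 (1.82-fold) and Scarb1 (1.77-fold) were lower. Without KO tumour replicate 2, Acsl1 (1.94-fold), Slc27a5 (2.38-fold), Dbi (1.81-fold), Acsl4 (2.05-fold) and Acsl5 (1.83-fold) passed, while Mfsd2a (log2 fold change 3.48, edgeR adjusted p = 0.0802) and Scarb1 (-0.79, adjusted p = 0.10) did not, and without KO tumour replicate 3 there were 4 calls. This comparison and that of WT tumours against WT liver share the WT tumours. Of 11 listed transcription regulators, Rxra (1.71-fold), the xenobiotic receptor Nr1i2 (1.90-fold) and the glucose-sensing factor Mlxipl (2.24-fold) were lower in WT tumours against WT liver. There 4.7% of all tested genes were lower. Ppara, the receptor that drives fat oxidation, stood at 135 ± 53 CPM in WT tumours (n = 3) and 132 ± 54 in WT liver (n = 2; edgeR adjusted p = 0.98). None of the 11 passed edgeR's test in another comparison. Between KO and WT tumours 3 had an unadjusted p under 0.05. DESeq2 called 2 there, Nr1i2 and Mlxipl, both higher in KO tumours, beside 7.88% of genes. In KO tumours against KO liver 1 had an unadjusted p under 0.05 and DESeq2 called 1, Rxra, while in KO against WT liver and in the interaction there were 2 each at that p and 0 in DESeq2.

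**Figure D4:**
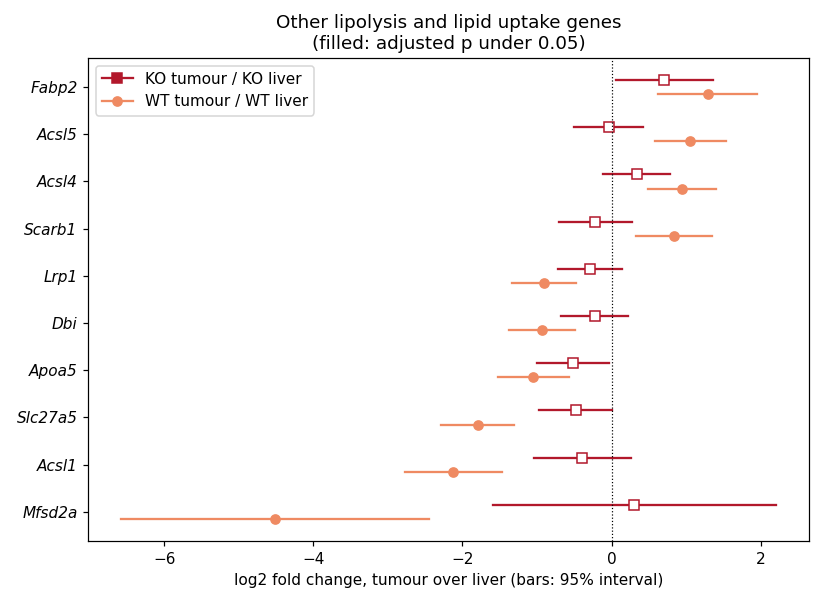
Log2 fold changes of tumour over liver with 95% intervals for the 10 other pathway genes that passed in at least 1 comparison, KO mice as squares and WT mice as circles, filled where edgeR's adjusted p was under 0.05. All 10 are filled in WT mice and none in KO mice.

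Lpl and Cd36 are also made by fat cells and macrophages, and Cd36 by endothelium. In bulk tissue fewer cells of a type and less RNA per cell cannot be told apart. Of 6 adipocyte markers, Lep and Adig had no count in any library, and the summed level was 1.66 to 13.9 CPM in KO tumours, 0.0642 to 1.67 in WT tumours, 7.21 to 11 in KO livers and 1.70 to 6.69 in WT livers. Cfd, the only one of them that could be tested, was called higher in KO tumours than in WT tumours (log2 fold change 3.93), a call lost without KO tumour replicate 2 (3.82, edgeR adjusted p = 0.13). It averaged 6.78 CPM in KO tumours, the largest part of their sum, and 0.438 in WT tumours. Retn went with Cfd (37 counts in KO tumours, all in 1 library, and 0 in WT tumours). Adipoq (3 and 18 counts) and Plin1 (4 and 12) went the other way, all on few counts. In WT tumours the 12 counts of Plin1 were in 1 library, and Adipoq ran from 0 to 0.886 CPM. The 12 macrophage markers summed to 347 to 602 CPM in KO tumours, 379 to 660 in WT tumours, 317 to 478 in KO livers and 299 to 308 in WT livers. Of them edgeR called Gpnmb and Lyz2 higher in WT tumours against WT liver and none lower, while DESeq2 called 4, among them Timd4 as lower (DESeq2 log2 fold change -2.52). Between KO and WT tumours edgeR called Gpnmb lower (-4.39) and Marco higher (2.83) in KO tumours, both also without KO tumour replicate 2, and DESeq2 called 5. The Marco difference was not confined to tumours. It stood at 31.6 to 51.1 CPM in KO tumours and 2.26 to 10.6 in WT tumours, and at 47.4 to 62.4 in KO livers and 3.71 to 5.24 in WT livers. In KO against WT liver edgeR called 0 of the 12 macrophage markers and DESeq2 1. Gpnmb was at 27.3 to 98.2 CPM in WT tumours and 0.568 to 3.39 in WT liver, and it was highest in WT tumour replicate 1, the WT tumour with the least Lpl and the most Cd36. The part of macrophages in the Lpl and Cd36 results was not tested. The 10 endothelial markers summed to 385 to 466 CPM in KO tumours, 371 to 493 in WT tumours, 433 to 471 in KO livers and 386 to 458 in WT livers, and edgeR called none in any comparison (DESeq2 0 too, with 0 to 3 of them at an unadjusted p under 0.05). For Lipc and Fabp1, made by hepatocytes, 3 of 7 hepatocyte markers (Alb, Ahsg and Apoa1) were called higher in WT tumours against WT liver and none lower, with 3 calls in DESeq2. The same 3 were lower in KO tumours than in WT tumours (log2 fold changes -1.64 to -1.23, and -1.47 to -1.19 without KO tumour replicate 2), each in the direction opposite to Lipc and Fabp1, and their part in those results was not tested. The 8 stellate cell markers summed to 285 to 474 CPM in KO tumours, 230 to 506 in WT tumours, 293 to 378 in KO livers and 374 to 426 in WT livers. Of these edgeR called Dcn lower in WT tumours against WT liver (DESeq2 called 4 there). The collagens went the other way without a call in edgeR. Col1a1 was at 20.4 to 85.6 CPM in WT tumours and 4.67 to 9.49 in WT liver. Col3a1 was at 13.6 to 93.5 CPM and 6.24 to 11.8. Without KO tumour replicate 2 Col1a1 was called higher (2.78, edgeR adjusted p = 0.0444). Between genotypes edgeR called Reln lower in KO than in WT tumours (DESeq2 2). The call of Reln was lost without KO tumour replicate 2 (-0.82, edgeR adjusted p = 0.11), while Dcn was then called higher in KO tumours (1.12, edgeR adjusted p = 0.0285). The 5 muscle markers summed to at most 11.8 CPM in any library.

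Across the 10 libraries the genes whose log2 CPM followed Lpl most closely, among 7179 genes that averaged at least 10 CPM, were Cstb (Pearson r = 0.993), Il1rn (0.992) and Srxn1 (0.991). Il1rn had group means of 24.4 CPM in KO tumours, 153 in WT tumours, 8.63 in KO livers and 5.95 in WT livers. Lipc was followed by Fam107b (0.980), Mbl2 (0.976) and Atp5f1 (0.969), Fabp1 by Bag4 (0.977), Mcm10 (0.971) and Mtch2 (0.969), and Angptl8 by Hilpda (0.939), Capn2 (0.902) and Tmem41b (0.872). The closest were Timm50 (0.887), Fastkd2 (0.887) and Eif4g1 (0.868) for Angptl4, and Nras (0.899), Matr3 (0.897) and Dnttip1 (0.889) for Cd36. For Vldlr, which rests on a few counts, they were Rab2a (0.926), Ppp1r7 (0.889) and Tyk2 (0.874). Among the members, r was 0.905 between Lipc and Fabp1, -0.897 between Lpl and Lipc and -0.835 between Lpl and Fabp1. These values describe 10 libraries in 4 groups that share the group differences above, and they carry no test.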

How the data were processed

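Messenger RNA of 10 mouse livers or liver tumours was measured with the QuantSeq 3' FWD kit from 50 ng of total RNA, per the labels' protocols. The authors deposited whole-number read counts per gene, not normalized, made with BWA and featureCounts on mm10 per the submitters' processing notes. Not given in the sources used here are the strand setting, tool versions, gene annotation and the handling of multiply assigned reads. In GENCODE M21 on GRCm38 no member's exons overlap an exon of another gene.

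Symbols were matched on Ensembl identifiers (38872 of 39056). Groups came from sample titles and columns from the library identifiers in the labels. Counts were fitted in R 4.3.3 with edgeR 4.0.16 (filterByExpr, TMM, quasi-likelihood test), with 1 term per group over all 10 libraries. There were 5 comparisons, the interaction being the KO tumour-to-liver change minus the WT one, and Benjamini-Hochberg adjusted p-values over all tested genes were called under 0.05. Standard errors were derived from the F statistic. The model was tested on simulated data. DESeq2 1.42.0 was the main alternative, beside other scalings, filters, the replicate number as a block and leaving out each library (for listed genes other than members, an alternative chosen after seeing the data). The design calls the replicates biological. No molecular identifiers are mentioned, so counting limits treat reads as independent.

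The members and lists were chosen with earlier results of these data known, and 2 listed genes are not reported here. Named genes were the 7 members, listed pathway genes past a test, and for each member the 3 genes of highest Pearson correlation (log2 CPM with a prior count of 2, mean of at least 10 CPM, no predicted names). Gpihbp1, Lmf1, Lipg, Ppara, Apoc2 and the marker genes were named after their values were seen.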

Additional observations from a re-analysis of the deposited data

Results flagged for a closer look

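The tumour-to-liver change of Lpl differed between genotypes by a test of the difference itself (interaction -2.78 on the log2 scale, edgeR adjusted p = 0.0179), with a log2 fold change of 1.62 in KO mice and 4.41 in WT mice, all 3 tumours of each genotype lying above both of its livers.

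For Angptl4 every KO tumour lay above the mean of the KO livers and every WT tumour below that of the WT livers, with a difference of 2.31 between the mean changes of log2(CPM + 1). This sign pattern is not itself a test. The KO difference was not called (log2 fold change 0.85, edgeR adjusted p = 0.55), and KO tumour replicate 1, at 20.7 CPM, was below the higher KO liver, at 25.5 CPM. The edgeR interaction of 2.52 did not pass (adjusted p = 0.0534, and 8.41e-06 to 0.21 over the alternatives), DESeq2 called it (adjusted p = 0.00866), and without WT liver replicate 1 it was 1.75.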

How the results depend on the processing

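Lpl and Lipc in WT tumours against WT liver, and Lpl, Lipc and Fabp1 in KO against WT tumours, kept direction and call under all 18 alternatives. DESeq2 called 2393 genes in WT tumours against liver, 427 in KO tumours against liver, 193 in KO against WT liver, 1206 in KO against WT tumours and 703 in the interaction, with 1 member in KO tumours against liver (Lpl), 1 in KO against WT liver (Angptl4) and 3 in the interaction (Lpl, Lipc, Angptl4), against 1318, 12, 1, 715 and 251 genes in edgeR. With no filter edgeR called 386 genes and 1 member in KO tumours against liver, 111 and 1 in KO against WT liver, 1181 genes in KO against WT tumours, and 635 and 3 in the interaction. Library totals alone gave 22 genes in KO tumours against liver and shifted the median of all genes in WT tumours against liver to 0.36. In KO tumours against liver and KO against WT liver, genes of 10 CPM or more gave 1 and 0 calls and the compared groups alone 0 and 0.

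Leaving out 1 library gave 932 to 1499 genes and 2 to 5 members in WT tumours against liver, 3 to 202 and 0 to 1 in KO tumours against liver, 0 to 9 and 0 to 0 in KO against WT liver, 459 to 816 and 3 to 3 in KO against WT tumours, and 171 to 287 and 0 to 3 in the interaction. The fewest members, 2, were called without WT liver replicate 1. Signs turned among values that were not called, those of Vldlr being fitted on a few counts: in KO tumours against liver, Lipc (-0.62 to 0.18), Angptl8 (-0.24 to 0.32) and Vldlr (-5.71 to 3.44, of which -0.15 without KO liver replicate 1), and in KO against WT tumours Vldlr (-7.84 to 1.03). The cause was not tested.

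Same-numbered libraries of different groups did not deviate together (correlation of deviations -0.00615 to 0.0238 over 13 pairs), so the numbers were not used as pairs. Deviations within a group sum to 0, so the 13 values are not independent, and they cannot exclude a pairing. With the replicate number as a block 2 members (Lpl and Angptl4) were called in the interaction, Fabp1 lost its call in WT tumours against liver (-0.99, adjusted p = 0.0822), and 1075, 11, 1, 681 and 255 genes were called. Depth limits Vldlr, at 0 to 93 counts a library.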
